A study of Mus musculus with 10 samples.

Results

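The genes described here are 9 adaptors of the focal adhesion, the structure through which a cell attached to matrix couples its integrins to the actin cytoskeleton. They are Sorbs2, Sorbs3, Vcl, Tln1, Tln2, Pxn, Zyx, Ptk2 and Ilk, among 55385 gene identifiers in the deposited files and 13620 genes with enough counts to be tested. The genes were chosen by their role and with the difference between the groups, above all that of Sorbs2, already known, so their differences are given as a description. Calls of these genes in the fit over all genes are only counted, and nothing is read from the count. RNA was sequenced from 2 related mouse melanoma lines in culture, with 5 libraries of each, numbered as biological replicates. WT31 is a line from a mouse with the melanocyte-directed transgene Tyr::NrasQ61K and without INK4a. WT31_P5IV is a single subline of WT31 that had gone through the liver 5 times after injection into the tail vein and had been expanded in culture after each round. Both therefore carry mutant NRAS and the INK4a deletion, and both were sub-confluent and received no drug. The RNA comes from cells in culture and not from metastases, and with 1 subline the effect of hepatic passaging cannot be told apart from the history of this subline.

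Focal adhesions are built around integrins. Talin binds the cytoplasmic tail of the integrin beta subunit and activates the receptor, and vinculin strengthens the link from talin to actin. Integrin-linked kinase forms a scaffold at the same tail together with PINCH and parvin proteins, paxillin and focal adhesion kinase recruit signalling proteins, and zyxin joins adhesions and stress fibres under tension. The vinexin family, to which Sorbs2 (also called ArgBP2) and Sorbs3 (vinexin) belong, carries a sorbin homology domain and SH3 domains that bind vinculin and other cytoskeletal and signalling proteins. In melanoma, as in other migrating cells, assembly and disassembly of these structures accompany spreading and movement on matrix.

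Libraries held 24255389 to 25750639 estimated counts. CPM are counts relative to a library size scaled by the trimmed mean of M values (TMM), and TPM are the deposited values per transcript length. All 8 melanocytic markers exceeded 1 TPM in every library, with a summed level of 14700 to 15500 TPM in WT31 and 16500 to 18400 TPM in WT31_P5IV. Each of the 8 hepatocyte, 6 endothelial, 7 stellate cell or fibroblast and 5 epithelial markers stayed under 1 TPM in every library. Serpina1a, Fgb, Cyp3a11, Cdh5, Lyve1, Krt18 and the macrophage marker C1qa had no count at all. Of 7 macrophage or leukocyte markers, Cd68 and Lyz2 exceeded 1 TPM in every library, and the list summed to 7.30 to 9.56 TPM in WT31 and 7.47 to 11.4 TPM in WT31_P5IV. The 8 striated muscle markers summed to 0.775 to 1.39 TPM and 2.10 to 2.89 TPM, with Ckm alone above 1 TPM in any library. The part of these markers in the results below was not tested. Within WT31, replicates 2 and 3 lay nearer to each other (chi-square per degree of freedom 3.46) than to replicates 1, 4 and 5 (8.98 to 26.9), whereas libraries of different groups were 112 to 164 apart. Results of the adaptors are therefore also given without these 2 libraries. In bulk RNA, fewer cells that express a gene and less of its RNA per cell cannot be told apart.

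Sorbs2 was the adaptor with the largest difference between the lines. The gene (ENSMUSG00000031626) lies on the plus strand at chr8:45507788-45827906 of GRCm38. In WT31 the 5 libraries held 150, 162, 181, 169 and 170 estimated counts of Sorbs2, and in WT31_P5IV they held 7, 8, 13, 9 and 4. These counts correspond to 5.88, 6.13, 7.10, 6.64 and 6.73 CPM in WT31 and to 0.294, 0.343, 0.523, 0.379 and 0.165 CPM in WT31_P5IV. No library of the subline came near the parental range, and each still lay above the limit of detection of 3 counts (0.114 to 0.129 CPM). Mean levels were 6.50 ± 0.49 CPM for the parental line and 0.341 ± 0.130 CPM for the subline (mean ± SD, n = 5 each). The edgeR fit gave a log2 fold change of -4.23 (SE 0.165), a fitted level 18.7-fold lower in the subline. Of the 13620 genes tested, 59 had a lower log2 fold change.

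Which start of Sorbs2 these cells use was not tested. Windows from 250 bases before to 50 bases after 3 RefSeq starts of Sorbs2 are printed (GRCm38.p6, plus strand, 5′ to 3′). They span chr8:45507538-45507837, chr8:45627501-45627800 and chr8:45661743-45662042, and their content of CpG dinucleotides declined in this order from 10 to 7 and 4, against a median of 7 over 32851 such windows of the genome.
Sorbs2 start 1: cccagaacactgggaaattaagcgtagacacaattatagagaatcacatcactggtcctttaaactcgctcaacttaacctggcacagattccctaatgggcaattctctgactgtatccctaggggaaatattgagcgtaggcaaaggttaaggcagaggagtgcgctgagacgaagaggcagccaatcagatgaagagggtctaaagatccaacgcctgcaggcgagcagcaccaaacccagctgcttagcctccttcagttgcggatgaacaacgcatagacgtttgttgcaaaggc
Sorbs2 start 2: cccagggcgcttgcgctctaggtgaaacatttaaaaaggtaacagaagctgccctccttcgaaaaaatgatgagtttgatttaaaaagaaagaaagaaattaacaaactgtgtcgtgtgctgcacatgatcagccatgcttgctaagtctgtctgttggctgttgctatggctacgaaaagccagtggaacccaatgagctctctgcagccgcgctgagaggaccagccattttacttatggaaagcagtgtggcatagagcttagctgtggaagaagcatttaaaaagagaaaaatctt
Sorbs2 start 3: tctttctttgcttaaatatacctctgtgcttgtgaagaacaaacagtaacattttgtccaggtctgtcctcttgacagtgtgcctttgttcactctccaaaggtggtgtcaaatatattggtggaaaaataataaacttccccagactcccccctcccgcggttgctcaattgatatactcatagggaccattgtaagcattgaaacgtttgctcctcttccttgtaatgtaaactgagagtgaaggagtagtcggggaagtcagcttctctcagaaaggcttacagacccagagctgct
Capitals would mark a match on either strand to 4 motifs: the serum response factor motif CArG box, the TEAD motif GGAATG, the AP-1 motif TGANTCA and the E-box CACGTG, none of which contains another. No base of these 3 windows is in capitals, which says only that these letters are absent here. The motifs occurred in 1.63%, 14.7%, 7.81% and 7.15% of all windows, respectively.

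RefSeq windows were at hand for 5 of the 9 adaptors. Those of Vcl (chr14:20929148-20929447, plus strand) and Zyx (chr6:42349578-42349877, plus strand) are shown because they hold matches to these motifs, in capitals. A window of Ilk also held the E-box. Vcl has a CArG box from 227 to 218 bases before its start and a TEAD motif from 143 to 138 bases before it, and Zyx has an AP-1 motif from 121 to 115 bases before its start. A match describes the sequence and is not evidence of binding.
Vcl: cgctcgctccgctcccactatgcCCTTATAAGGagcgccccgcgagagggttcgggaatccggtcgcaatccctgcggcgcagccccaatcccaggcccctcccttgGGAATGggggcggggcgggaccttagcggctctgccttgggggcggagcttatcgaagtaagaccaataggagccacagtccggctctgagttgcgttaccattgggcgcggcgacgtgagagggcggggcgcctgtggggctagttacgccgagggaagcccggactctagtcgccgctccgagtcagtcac
Zyx: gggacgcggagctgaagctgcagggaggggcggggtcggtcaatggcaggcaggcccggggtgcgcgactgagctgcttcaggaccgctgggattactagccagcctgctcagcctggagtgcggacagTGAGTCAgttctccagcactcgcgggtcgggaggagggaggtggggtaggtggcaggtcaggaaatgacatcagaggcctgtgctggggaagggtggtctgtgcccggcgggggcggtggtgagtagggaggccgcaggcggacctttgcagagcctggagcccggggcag

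The other 8 adaptors differed little by comparison, with log2 fold changes between -0.32 and 0.32. Counting Sorbs2, 7 of the 9 genes had an adjusted p under 0.05 in the edgeR fit, 2 of them higher and 5 lower in WT31_P5IV. Over all tested genes the same rule called 68.5%, with 34.6% higher and 33.9% lower. Only Sorbs2 also passed a log2 fold change of 1 in either direction, which 9.10% of tested genes did. Sorbs2, with 4 to 13 counts per library in WT31_P5IV, passed the filter on low counts only through WT31. Its call is therefore counted here without further meaning. CPM of the groups did not overlap for 7 adaptors and for 54.1% of tested genes. The median log2 fold change was -0.16 over the adaptors and 0.01 over all tested genes.

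**Figure D1:**
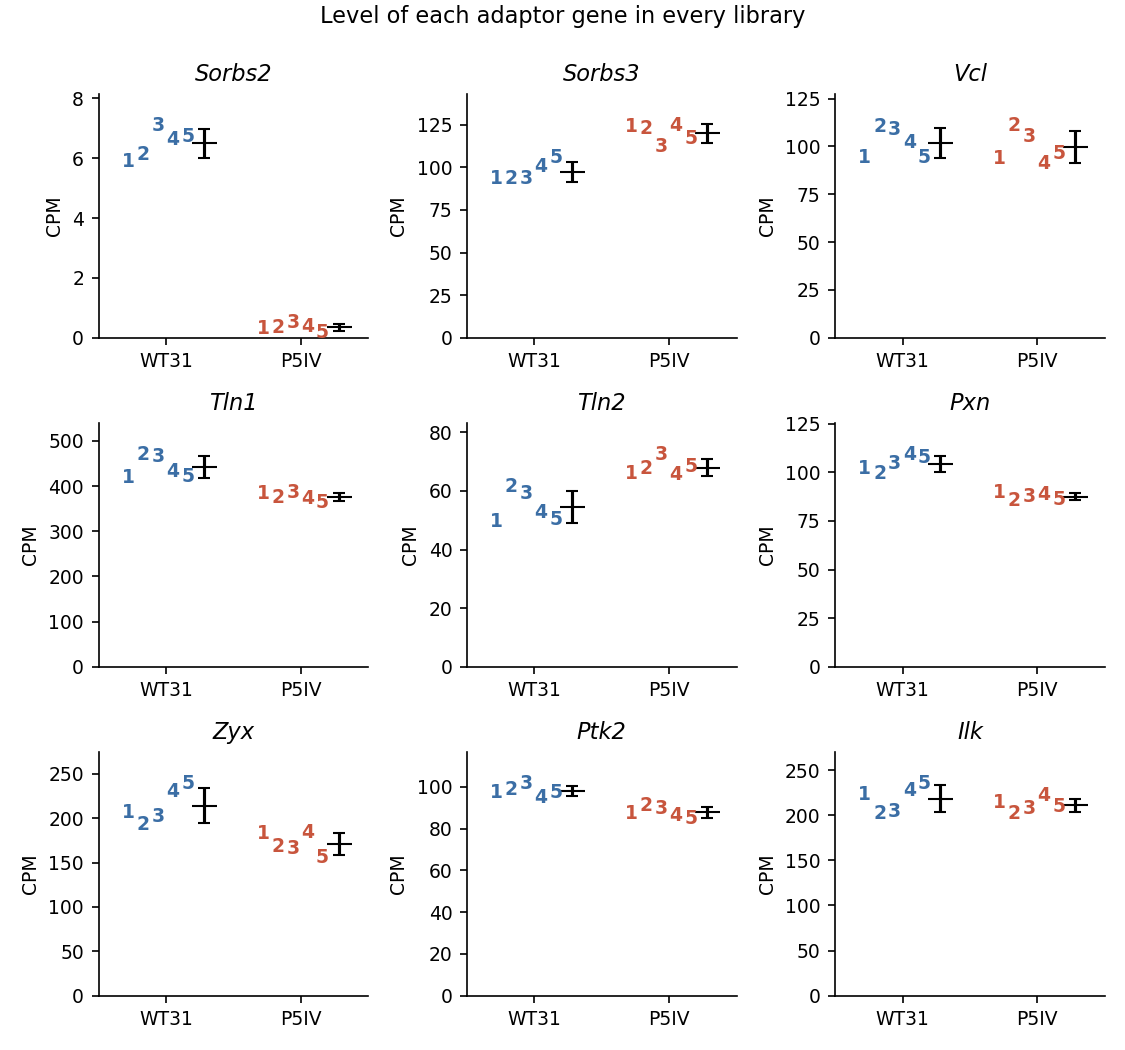
CPM of the 9 adaptor genes in each library. Digits are the replicate numbers of WT31 (blue) and WT31_P5IV (red), horizontal bars with whiskers are mean and SD (n = 5), and each axis starts at 0. Sorbs2 has a mean of 6.50 CPM in WT31 and 0.341 CPM in WT31_P5IV, while the ranges of Vcl and Ilk overlap between the lines.

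Sorbs3, the vinexin gene (chr14:70180468-70211989, minus strand), was the family member present at the higher level. Its libraries gave 93.4, 93.2, 93.7, 101 and 106 CPM in WT31 and 124, 123, 112, 125 and 117 CPM in WT31_P5IV. Every library of the subline lay above every parental one, at a log2 fold change of 0.30 (SE 0.046), the opposite direction to Sorbs2. On the TPM scale the groups overlapped, at 52.9 ± 1.8 and 57.5 ± 2.0 TPM. Sorbs2 made up 5.13 ± 0.96% of the summed TPM of both genes in WT31 and 0.35 ± 0.29% in WT31_P5IV. The ranges of this share, 4.30% to 6.24% and 0.106% to 0.805%, did not overlap.

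Both talin genes were expressed and differed in opposite directions. Tln1 (chr4:43531519-43562691, minus strand), the talin of most cell types, gave 418, 470, 466, 433 and 422 CPM in WT31 and 383, 375, 385, 372 and 364 CPM in WT31_P5IV. Tln2 (chr9:67217087-67559703, minus strand), its paralogue, gave 49.5, 61.7, 59.2, 52.7 and 50.3 CPM in WT31 and 65.9, 67.7, 72.5, 65.6 and 68.4 CPM in WT31_P5IV. Neither gene's groups overlapped in CPM: Tln1 was lower in the subline with a log2 fold change of -0.23 (SE 0.040) and Tln2 higher with 0.32 (SE 0.059). Per transcript length, Tln1 was the major talin in both lines. It held 87.5 ± 0.34% of the summed talin TPM in WT31 and 82.8 ± 0.52% in WT31_P5IV, with ranges of 87.0% to 88.0% and 82.2% to 83.4%. The TPM of Tln2 alone overlapped between the groups.

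**Figure D2:**
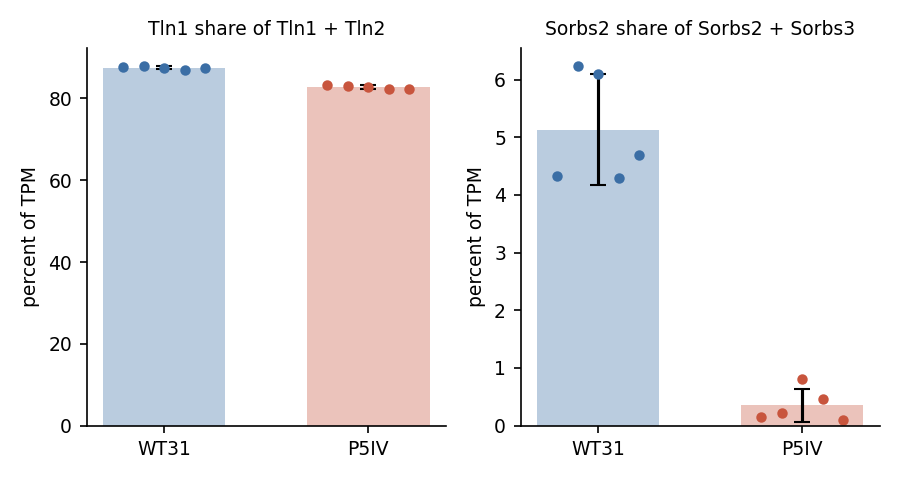
Share of TPM held by Tln1 among the talin genes (left) and by Sorbs2 among Sorbs2 and Sorbs3 (right), in percent. Points are libraries, bars are means and whiskers are SD (n = 5). The talin share was 87.5% in WT31 and 82.8% in WT31_P5IV, and the Sorbs2 share 5.13% and 0.35%.

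Vcl, which encodes vinculin (chr14:20929398-21033676, plus strand), had overlapping levels. Its libraries gave 94.3, 110, 109, 102 and 94.1 CPM in WT31 and 93.6, 111, 105, 91.3 and 96.2 CPM in WT31_P5IV, with a log2 fold change of -0.04 (SE 0.062). The scatter within each line was larger than the difference between them. Of the 31-base words in Vcl transcripts, the word length kallisto matches by default, 25.3% also occur in Ap3m1, a gene on the opposite strand with a mean of 4100 counts. Without a stated strand setting, reads of the 2 genes cannot be separated there.

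Zyx, which encodes the LIM protein zyxin (chr6:42349630-42360213, plus strand), was lower in the subline. It gave 206, 193, 202, 230 and 239 CPM in WT31 and 183, 168, 166, 184 and 156 CPM in WT31_P5IV. The lowest parental library, replicate 2, lay just above the highest of the subline, and the log2 fold change was -0.32 (SE 0.063). In TPM the gap was wider, with 164 ± 9.4 in WT31 and 115 ± 6.9 in WT31_P5IV.

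Pxn and Ptk2, which encode the scaffold paxillin and the focal adhesion kinase that binds it, were both slightly lower. Pxn (chr5:115506676-115555987, plus strand) ranged from 99.3 to 109 CPM in WT31 and from 85.8 to 89.7 CPM in WT31_P5IV, with a log2 fold change of -0.26 (SE 0.036). Ptk2 (chr15:73205102-73423280, minus strand) ranged from 95.1 to 102 CPM in WT31 and from 84.9 to 91.3 CPM in WT31_P5IV, with a log2 fold change of -0.16 (SE 0.035). Neither gene's groups overlapped. The related kinase gene Ptk2b reached only 0.143 ± 0.067 TPM in WT31 and 0.080 ± 0.040 TPM in WT31_P5IV, so Ptk2 held 99.6% and 99.7% of the TPM of the pair.

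Ilk, which encodes integrin-linked kinase (chr7:105736592-105742925, plus strand), was the adaptor with the highest level per transcript length. In CPM, in which Tln1 was higher, it gave 223, 202, 204, 228 and 235 CPM in WT31 and 214, 202, 207, 222 and 210 CPM in WT31_P5IV, so that the groups overlapped (log2 fold change -0.05, SE 0.046). In TPM, by contrast, every library of the subline was lower, at 184 ± 7.0 against 212 ± 7.7 TPM. The word overlap is large here, since 78.4% of the 31-base words of Ilk transcripts also occur in other genes, mostly Taf10 on the opposite strand. The level of Ilk is uncertain to that extent.

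Part of the difference between CPM and TPM applied to all genes. On log2(TPM + 0.1), where low genes change less than on a pure ratio, the median tested gene was at -0.14 in WT31_P5IV relative to WT31. Relative to that median, Sorbs2 was at -3.30, Zyx at -0.37, Pxn at -0.27, Tln1 at -0.25, Ptk2 at -0.21, Ilk at -0.07, Vcl at 0.02, Sorbs3 at 0.26 and Tln2 at 0.29. The order of the genes by difference was that from CPM, and the direction flipped for Vcl alone, whose groups overlapped on both scales. With limma on this scale, 32.9% of called genes were higher, against 50.5% in the edgeR fit.

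Levels can be compared between genes per transcript length. The descending order of mean TPM was Ilk, Zyx, Tln1, Sorbs3, Pxn, Ptk2, Vcl, Tln2 and Sorbs2 in WT31, and it was the same in WT31_P5IV. Ilk stood at percentile 95.1 of the tested genes in WT31 and 95.0 in WT31_P5IV. Sorbs2, at 2.86 ± 0.55 TPM, was already the lowest adaptor in the parental line at percentile 22.2, and at 0.199 ± 0.158 TPM it stood at percentile 2.19 in the subline. Neighbours in the order did not overlap in either line, though some gaps were narrow. In WT31 the lowest Pxn was 44.21 TPM and the highest Ptk2 44.1 TPM. In WT31_P5IV the lowest Ptk2 was 30.52 TPM and the highest Vcl 30.38 TPM. Tln1 and Sorbs3 came closer to each other in WT31_P5IV (62.3 ± 2.0 and 57.5 ± 2.0 TPM) than in WT31 (81.9 ± 6.7 and 52.9 ± 1.8 TPM).

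**Figure D3:**
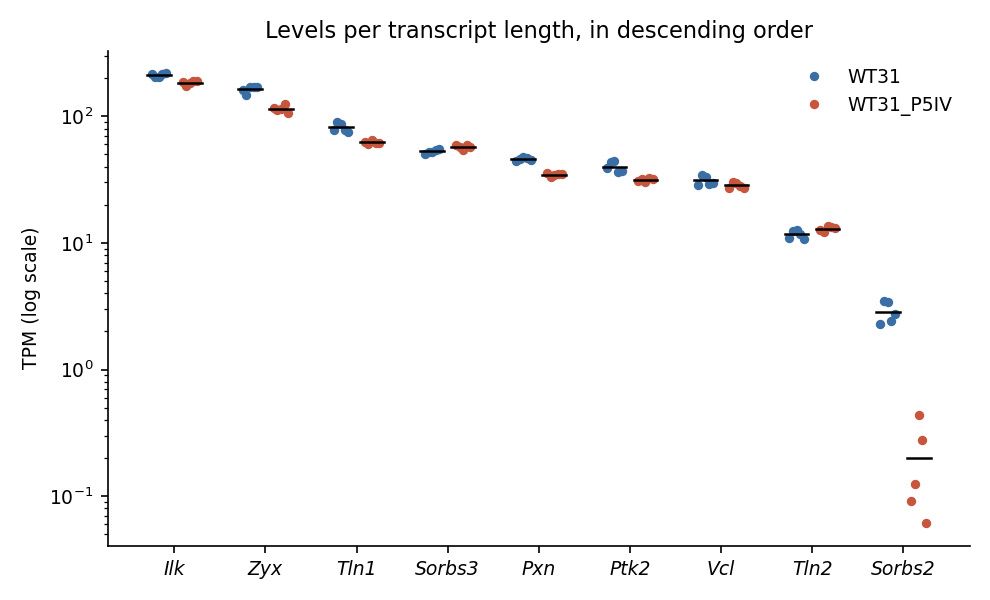
TPM of the adaptor genes on a log axis, ordered by the mean in WT31. Points are the 5 libraries of WT31 (blue) and WT31_P5IV (red), and black lines are means. Levels run from Ilk (212 and 184 TPM) to Sorbs2 (2.86 and 0.199 TPM), in the same order in both lines.

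The split within WT31 also ran through the adaptors. In replicates 2 and 3, CPM of Vcl, Tln1, Tln2 and Ptk2 were above those of all other WT31 libraries, and CPM of Zyx and Ilk below them. CPM of Sorbs2, Sorbs3 and Pxn overlapped between the 2 sets of libraries, although the TPM of Sorbs2 was highest in replicates 2 and 3 (3.48 and 3.39, against 2.30 to 2.73 TPM). Without these 2 libraries the log2 fold changes were -4.23 for Sorbs2, 0.25 for Sorbs3, 0.03 for Vcl, -0.19 for Tln1, 0.41 for Tln2, -0.30 for Pxn, -0.41 for Zyx, -0.15 for Ptk2 and -0.13 for Ilk. Vcl, whose groups overlapped, changed its sign, and the other 8 directions held.

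The partners of the adaptors were also chosen with earlier results of these data known, so their counts and p-values are given as a description. They were examined through 98 further genes of integrin adhesions, grouped by textbook role. Of these, 84 were tested and 70 (83.3%) were called by edgeR's quasi-likelihood test, 19 higher and 51 lower in WT31_P5IV, where the shares over all tested genes were 68.5% called, 34.6% higher and 33.9% lower. Their median log2 fold change was -0.21, compared with 0.01 over all tested genes. Past a log2 fold change of 1 there were 7 of them (8.33%), 5 higher and 2 lower, a share near the 9.10% of all tested genes. Pak1 and Fermt3 are among the 5, both at low counts, and on log2(TPM + 1) 3 genes lay past this threshold. By limma on log2(TPM + 0.1), 11 of the listed genes were higher and 56 lower.

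**Figure D4:**
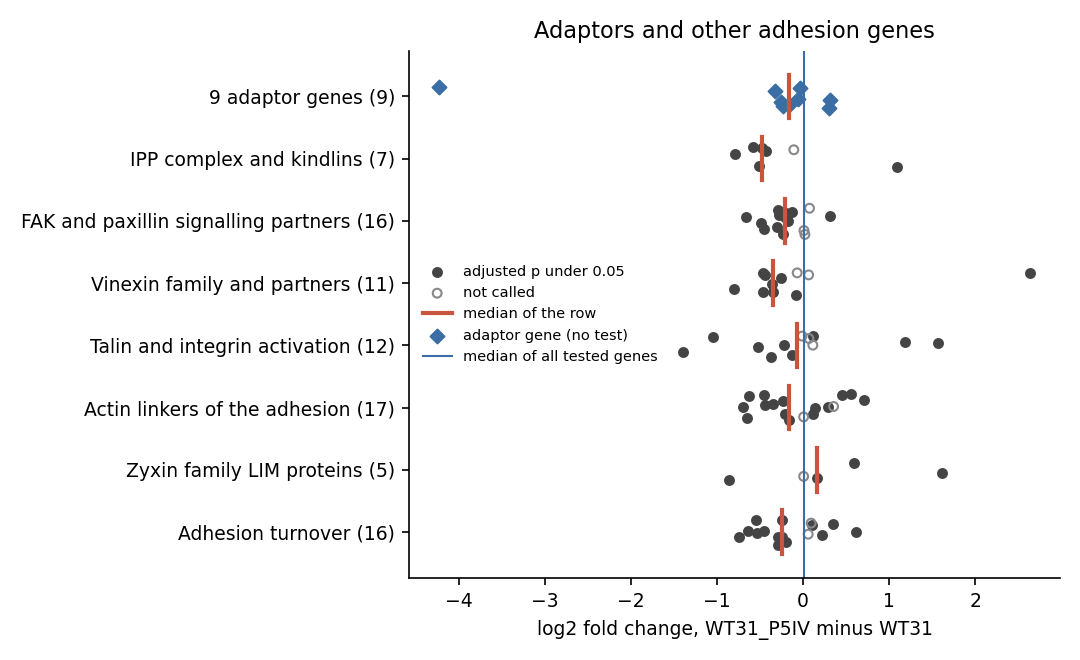
Log2 fold change (WT31_P5IV minus WT31) of the adaptors and of 7 groups of other adhesion genes, with the number of tested genes in brackets. Filled circles have an adjusted p under 0.05, open circles do not, diamonds are the adaptors without a test, red bars are medians of a row and the blue line is the median of all tested genes (0.01). Medians run from -0.48 for the partners of integrin-linked kinase to 0.17 for the zyxin family.

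Direct partners of integrin-linked kinase and the kindlins, which activate integrins together with talin, were mostly lower. Of 7 tested genes 5 fell and 1 rose, with a median of -0.48. Parvb (beta-parvin) fell by 0.79 on the log2 scale (SE 0.036, adjusted p = 1.16e-10), from 168 ± 5.8 to 97.2 ± 2.6 CPM. Lims1 (PINCH1) fell by 0.59 (adjusted p = 1.59e-08), and Rsu1, a Ras suppressor bound to PINCH and the most abundant gene of the group by TPM, fell by 0.51 (adjusted p = 2.07e-07). Fermt3, the kindlin of blood cells, rose by 1.10 (adjusted p = 6.17e-04) from only 0.665 ± 0.208 to 1.43 ± 0.33 CPM, and was under 1 on the log2 scale without WT31 replicate 2 (0.97) or WT31_P5IV replicate 5 (0.98).

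Signalling partners of focal adhesion kinase and paxillin comprised 16 tested genes, of which 12 fell and 1 rose, with a median of -0.20. The adaptor genes Crkl and Crk fell by 0.66 (SE 0.048, adjusted p = 1.64e-08) and 0.45 (SE 0.044, adjusted p = 4.17e-07). Asap1, a GTPase-activating protein for Arf, fell by 0.49 (adjusted p = 1.37e-06). Sh2b1, an SH2 adaptor, rose by 0.31 (adjusted p = 2.58e-06). Src, the kinase that acts with focal adhesion kinase and the gene of this list with the highest mean TPM over all libraries, was at 218 ± 7.2 and 221 ± 6.0 CPM (log2 fold change 0.02, adjusted p = 0.567); by limma on log2(TPM + 0.1) it was called, at -0.11.

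Among 11 genes listed as partners of the vinexin family, 8 fell and 1 rose, with a median of -0.35. Dlg1, a scaffold of cell polarity, fell by 0.80 (adjusted p = 9.63e-10), Cblb, a ubiquitin ligase, by 0.46 (adjusted p = 1.94e-04) and Abl2, a tyrosine kinase, by 0.46 (adjusted p = 1.72e-04). The gene counted as higher was Pak1, a kinase downstream of Rac and Cdc42, at a log2 fold change of 2.64 (SE 0.187). It held only 5, 8, 7, 5 and 6 counts in WT31 and 40, 32, 37, 39 and 36 in WT31_P5IV, so it passed the filter on low counts only through the subline, and its difference is given without a p-value.

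Regulators of talin and of integrin activation held 4 of the 7 large changes. Of 12 tested genes 3 rose and 6 fell, with a median of -0.07. Limma on log2(TPM + 0.1) called 2 higher and 8 lower, with a median of -0.21. The Kank genes, whose products bind talin at the rim of adhesions, went in both directions. Kank3 rose by 1.57 (SE 0.124, adjusted p = 4.17e-08) and Kank1 by 1.19 (SE 0.063, adjusted p = 6.41e-10), whereas Kank4 fell by 1.39 (SE 0.076, adjusted p = 8.46e-10). In CPM, Kank1 went from 12.2 ± 1.0 to 27.9 ± 1.7, Kank3 from 1.18 ± 0.17 to 3.52 ± 0.27 and Kank4 from 14.5 ± 1.2 to 5.52 ± 0.47. Tes (testin), a LIM protein that binds zyxin, fell by 1.05 (adjusted p = 2.53e-11), and Rap1a, a small GTPase upstream of talin, fell by 0.52 (adjusted p = 1.70e-08).

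Relatives of zyxin, LIM proteins that shuttle between adhesions and the nucleus, went in both directions. Of the 5 genes 3 rose and 1 fell by edgeR, while limma on log2(TPM + 0.1) called 2 in each direction. Their median was 0.17 by edgeR and 0.03 on log2(TPM + 0.1). Trip6 gave 22.3, 21.8, 22.2, 24.0 and 26.5 CPM in WT31 and 74.6, 72.2, 66.9, 75.7 and 68.0 CPM in WT31_P5IV. It thus rose by 1.61 (SE 0.057, adjusted p = 8.82e-12), with every library of the subline far above the parental ones. Lpp fell by 0.86 (SE 0.093, adjusted p = 1.11e-06), and Wtip rose by 0.60 (SE 0.078, adjusted p = 8.58e-06). Limd1, the most abundant of them, rose by 0.17 (SE 0.034, adjusted p = 6.29e-04), a call that was absent on log2(TPM + 0.1), where it was at 0.03.

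Proteins that tie adhesions to actin gave 9 lower and 6 higher genes of 17 tested, with a median of -0.16. Limma on log2(TPM + 0.1) called 9 lower and 3 higher. With edgeR the median was -0.07 with an offset for effective length and -0.28 without WT31 replicates 2 and 3. Palld (palladin) fell by 0.70 (adjusted p = 3.25e-07), Lasp1 by 0.65 (adjusted p = 2.76e-09) and Pdlim5 by 0.63 (adjusted p = 2.10e-08). Csrp2 rose by 0.70 (adjusted p = 7.12e-06), while its relative Csrp1, the most abundant of the group at 515 TPM in WT31, fell by 0.35 (adjusted p = 2.83e-05). Among 16 genes of adhesion turnover 10 fell and 4 rose, with a median of -0.24, and 10 were lower and 1 higher by limma on log2(TPM + 0.1). Phldb2, a cortical anchor for microtubules near adhesions, fell by 0.74 (adjusted p = 1.94e-07), the phosphatase genes Ppm1f and Ptpn12 by 0.64 (adjusted p = 1.39e-08) and 0.55 (adjusted p = 6.03e-09). Capn1, the large subunit of a calpain that cleaves talin, rose by 0.62 (adjusted p = 8.93e-08), and Capns1, the shared small subunit, fell by 0.20 (adjusted p = 0.00724).

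Genes beside Sorbs2 were inspected to see whether its low level extended along the chromosome. Within 1 Mb of the gene 15 genes were tested, and their log2 fold changes ranged from -0.92 to 0.69 around a median of -0.24. By edgeR 8 fell and 3 rose, where 33.9% and 34.6% of all tested genes did. Within 2 Mb 10 of 21 tested genes fell and 4 rose, and the median was -0.10. Over chromosome 8 the median of 743 tested genes was 0.03, and 31.8% of them were called lower. The value of Sorbs2, -4.23, lay far outside the range of its neighbours, and the part of the neighbourhood in it was not tested.

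**Figure D5:**
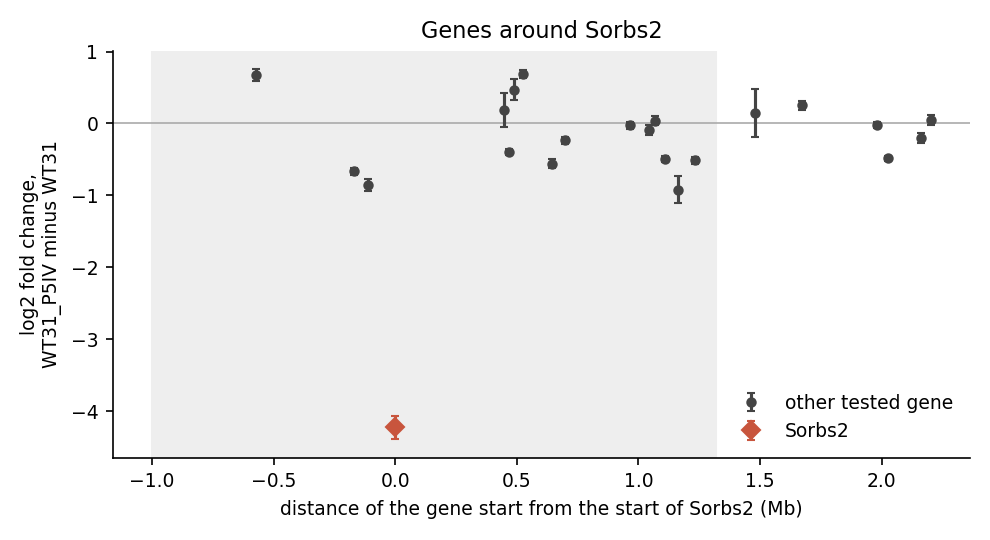
Log2 fold change (WT31_P5IV minus WT31) of tested genes against the distance of their start from the start of Sorbs2, in Mb. Circles are other genes, the diamond is Sorbs2, whiskers are standard errors and the grey band reaches 1 Mb to either side of the gene. The other genes in the band lie between -0.92 and 0.69, and Sorbs2 lies at -4.23.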

How the data were processed

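RNA of cultured WT31 and WT31_P5IV cells was analysed, with 5 libraries per group and replicate numbers from the sample titles. According to the deposited notes the authors trimmed reads with Trim Galore 0.6.4, quantified transcripts of GRCm38.p6 with kallisto and summed them per gene, and deposited estimated counts and, in separate tables, TPM. The annotation release and the strand setting are not given in the sources used here. Of 55385 identifiers 55144 matched GENCODE M21, which gave symbols and positions. The labels name instruments of 2 makers.

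Estimated counts were rounded to whole numbers. In R 4.3.3, edgeR 4.0.16 filtered genes with filterByExpr, scaled libraries by TMM and tested the groups with glmQLFTest after glmQLFit. P-values were adjusted by Benjamini-Hochberg over all 13620 tested genes, and genes under 0.05 are called changed. Limits of detection are 3 counts per library and cover counting error only. The p-values measure the spread between cultures of 1 line and 1 subline. On simulated counts the test recovered 89% of genes changed by a log2 fold change of 1 and 94% of those changed by 2. It made 12 false calls among 13477 genes. The simulation changed 100 genes of each size, equally in both directions, and left all others unchanged. It therefore does not cover data like these, in which 68.5% of tested genes were called. Libraries of 1 group differed by more than counting error in every pair, so none was counted as a repeat of another.

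The adaptors and the gene lists were chosen with earlier results of these data known. Named genes are the adaptors, in each list the 4 largest changes among called genes and the gene with the highest TPM, genes near Sorbs2 with an absolute log2 fold change of at least 1, the 5 genes most correlated with Sorbs2, and both genes of each pair. Values of 1 gene under this rule are not reported here. Alternatives were DESeq2 1.42.0, limma 3.58.1 voom with TMM and without scaling or filter, upper-quartile scaling, genes with at least 1 count, at least 10 counts in every library, a replicate block, an offset for effective length, limma on log2(TPM + 0.1) and log2(TPM + 1), a log2 fold change of 1 in the call, and each library left out. Leaving out WT31 replicates 2 and 3 together and giving effective lengths in bases were added after the data were seen. Tables were handled in Python 3.11.15 (pandas 2.3.3, numpy 2.4.6).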

Additional observations from a re-analysis of the deposited data

Results flagged for a closer look

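In 110 groups of 5 libraries (levels of the named genes, totals, shares and effective lengths), 5 had a library far from the others by Dixon's test, which chance gives in about 1 of 20 groups. Kank4 was at 16.5 CPM in WT31 replicate 2, against 13.8 to 14.3 CPM in the other WT31 libraries. Palld was at 12.3 CPM in WT31 replicate 1, against at most 11.3 CPM in the others. The total of estimated counts was 25750639 in WT31 replicate 2, against 24825671 to 24955723, and 25547694 in WT31_P5IV replicate 3, against 24255389 to 24431000. The effective length of Tln2 was 6460 bases in WT31_P5IV replicate 4, against 6978 to 7118 bases in the other libraries of the subline.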

How the results depend on the processing

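Counts of called genes in both directions together stayed within 1.5 times of the values above for all genes, the adaptors, the listed genes as a whole and the genes near Sorbs2, except with the added log2 fold change of 1. With it, 1240 of all genes, 1 of the adaptors, 7 of the listed adhesion genes and 0 of the genes within 1 Mb of Sorbs2 were called by edgeR. That 0 was also found at an unadjusted p under 0.05 and with DESeq2 or limma voom. When each library was left out in turn, 8965 to 9444 genes were called in all, 7 adaptors each time, 66 to 70 listed genes and 11 neighbours. The replicate numbers did not pair the libraries, since deviations from the group means correlated at -0.01, 0.07, 0.18, 0.08 and -0.10 for numbers 1 to 5, and 2 of 5 libraries correlated best with their own number. With a replicate block 9380 genes were called in place of 9327, and 7 adaptors as before. Under the other alternatives 6 to 8 adaptors were called. On log2(TPM + 0.1), 2915 genes were called higher and 5946 lower, and on log2(TPM + 1), 2910 and 5957, in place of 4709 and 4618. Of the listed genes 11 were then higher and 56 lower on both scales, in place of 19 and 51.

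No called adaptor changed its direction under any alternative tried. Sorbs2 ranged from -4.44 (without WT31_P5IV replicate 3) to -1.69 on log2(TPM + 1), where its low level compresses the ratio, and it was not tested when 10 counts were required in every library. The other adaptors ranged over these alternatives from -0.51 (Zyx, on log2(TPM + 0.1)) to 0.41 (Tln2, without WT31 replicates 2 and 3). Of the named genes of the lists, Src and Limd1 changed their call, both on the TPM scale, and Pak1 was not tested when 10 counts were required in every library. The number of listed genes past a log2 fold change of 1 was 3 on log2(TPM + 1), 6 on log2(TPM + 0.1) and with 10 counts in every library, 10 with voom without scaling or filter, and 7 to 9 when a library was left out. Depth limits Sorbs2 in the subline, where 4 to 13 counts per library leave its level there uncertain, and its TPM more so, with an SD of 0.158 on a mean of 0.199. Levels of Ilk and Vcl are limited by sequence shared with opposite-strand genes.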

Other observations

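The ratio of estimated count to TPM gives the effective length kallisto assigned to a gene, which follows the transcripts it used. Sorbs2 has 36 annotated transcripts of 293 to 6425 bases, and its effective length in WT31 was 3824, 2719, 3195, 4025 and 3559 bases. It was shortest in replicates 2 and 3, the libraries in which its TPM was highest (3.48 and 3.39, against 2.30 to 2.73 in the others), although its CPM there (6.13 and 7.10) lay within or just above the range of the others. In WT31_P5IV it ran from 1589 to 4314 bases on 4 to 13 counts. Other adaptors were steadier, for example Sorbs3 at 2747 ± 5 bases in WT31 and 2766 ± 12 in WT31_P5IV, Tln1 at 8062 ± 28 and 7998 ± 74, and Tln2 at 6990 ± 441 and 6945 ± 277.

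The 5 tested genes whose log2 CPM followed Sorbs2 most closely over the 10 libraries were Rars (Pearson r 0.9988), Krt23 (0.9975), Dner (0.9971), Tnfrsf21 (0.9971) and Nkd2 (0.9970). The libraries form 2 separate groups, so r mostly carries the difference between the lines and is given as a description. Dner, a Notch ligand of neurons, went from 9.93 ± 0.42 to 0.875 ± 0.203 CPM, and Tnfrsf21, a death receptor, from 21.4 ± 1.5 to 1.28 ± 0.19 CPM. Rars, an aminoacyl-tRNA synthetase gene, went only from 169 ± 1.5 to 121 ± 2.1 CPM, a much smaller difference than that of Sorbs2.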
